A study of Mus musculus with 10 samples.

Results

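The cytosolic ribosomal protein genes measured here were the mouse genes whose array symbol starts with Rpl or Rps and a digit, together with Rpsa, Rplp0, Rplp1 and Rplp2, leaving out the Rps6k kinases and pseudogene symbols. The rule found 96 probes for 65 gene symbols, 38 of Rpl or Rplp type for the large subunit and 27 of Rps type for the small subunit, among 45281 probes on the array. It uses symbols only, and it also takes in genes that are not ribosomal proteins themselves, such as Rps19bp1, which encodes a protein that binds Rps19, and Rps23rg1, a retroposed gene related to Rps23. The ribosome is built from ribosomal RNA and about one copy each of these proteins, so their mRNAs are made at high and similar rates in most cells, and hepatocytes, which export large amounts of plasma protein, carry many ribosomes. Most of these mRNAs begin with a terminal oligopyrimidine (TOP) stretch, a C followed by further pyrimidines, through which the kinase complex mTORC1 and its target LARP1 set how well they are translated. LKB1, encoded by Stk11, activates AMPK, which restrains mTORC1.

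Liver RNA of FVB mice, an inbred strain, was hybridised to Illumina bead arrays, 1 for each animal. The 6 LKB1 mice received a plasmid carrying wild-type LKB1, injected into a tail vein 1 time a week over 8 weeks. The other 4 mice were untreated, so the injections, the plasmid and the added LKB1 cannot be told apart, and the sources used here do not give age, sex, the plasmid's promoter or the share of cells that took it up. Both liver and hepatocytes appear in the labels for the same samples. Stk11 itself read 9.60 ± 0.12 (SD, n = 4) on the log2 intensity scale in untreated and 9.66 ± 0.08 (SD, n = 6) in LKB1 livers, and whether its probe can bind mRNA from the plasmid is not known. Each array detected between 15374 and 16839 probes, and pairs of arrays correlated at r = 0.983 or above over the probes used. The arrays were split into 2 sets by clustering their readings at background, with the number of sets fixed at 2 beforehand. Set A held untreated mice 1 and 2 and LKB1 mice 1, 2 and 4. Set B held untreated mice 3 and 4 and LKB1 mice 5, 6 and 7. At these background readings the Spearman correlation between arrays was 0.522 within sets and 0.482 between sets. The clustering used these same correlations, so the gap is built in and does not show how distinct the sets are.

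The TOP stretch is a feature of sequence, so the start sites of the members are shown first. RefSeq promoter sequences of build GRCm38.p6 were matched by gene number for 54 of the 65 members, with 64 annotated starts. The lines below give 15 bases before and 15 bases after the annotated start, 5′ to 3′, for the members of smallest p that had a sequence and for Rps6, with the longest run of pyrimidines (C or T) in capitals.
Rplp0 (chr5:115559452-115559481, plus strand): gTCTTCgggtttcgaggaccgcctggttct
Rps15a (chr7:118116133-118116162, minus strand): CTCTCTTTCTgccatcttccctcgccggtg
Rps10 (chr17:27635230-27635259, minus strand): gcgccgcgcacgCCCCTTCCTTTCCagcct
Rpl41 (chr10:128549154-128549183, minus strand): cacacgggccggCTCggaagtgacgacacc
Rpl10a, first start (chr17:28328456-28328485, plus strand): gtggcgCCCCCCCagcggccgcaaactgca
Rpl10a, second start (chr17:28328550-28328579, plus strand): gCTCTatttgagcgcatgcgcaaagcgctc
Rpl12 (chr2:32961697-32961726, plus strand): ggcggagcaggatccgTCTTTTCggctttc
Rpl4 (chr9:64173372-64173401, plus strand): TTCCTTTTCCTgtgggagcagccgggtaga
Rpl26 (chr11:68901551-68901580, plus strand): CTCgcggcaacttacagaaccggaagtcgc
Rps6 (chr4:86857353-86857382, minus strand): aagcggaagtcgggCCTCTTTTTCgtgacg
In Rps6 and Rps10 the run crossed the annotated start, in Rpl4 it lay before it, in Rps15a the longest run lay before it and a shorter run crossed it, and in Rpl26 and Rpl41 no run was longer than 3 bases.

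Over all member starts, 23 of 64 (35.9%) held a run of at least 8 pyrimidines in this window of 30 bases, against 12.0% of all 32851 promoters in the table, and the median longest run was 6 bases against 4. The run could lie anywhere in the window, also wholly before the start, so this is not a count of TOP stretches. The motif CCGGAAG, the core bound by ETS factors such as GABP, was found on either strand within 250 bases before to 50 bases after the start in 24 of 64 member starts (37.5%) and in 8.86% of all promoters. In Rpl26 it lies within the printed window, and Rps6, Rps10 and Rpl41 hold it elsewhere in the promoter. These are matches of letters around annotated starts, which can differ from the start used in liver, and a start without a run says only that the letters are not in that window.

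Of the 96 member probes, 77 were kept, which means that 4 or more arrays detected them at p under 0.05, and 76 of these were detected on all 10. They stood for 56 of the 65 members, 32 Rpl and 24 Rps genes, and the brightest kept probe represents each gene below. By mean intensity over all 10 mice, the probes with the highest signal were those of Rpl41, the smallest protein of the large subunit, which read 14.33 ± 0.09 (SD, n = 4) in untreated livers, on a log2 scale, of Rps29 at 14.24 ± 0.16 and of the small-subunit protein Rps2 at 14.00 ± 0.08. By the same mean, the lowest signals were those of Rpl7a at 5.38 ± 0.15, Rps15a at 5.25 ± 0.30 and Rplp0 at 6.08 ± 0.17 in untreated livers (SD, n = 4 each). Probes differ in how well they bind, so this order is one of probe signals and gives no order of mRNA levels between genes.

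Of the 19 probes not kept, 15 were detected on no array. The 9 members without a kept probe were Rpl6, Rpl14, Rpl17, Rps20, Rps23 and the laminin-binding protein Rpsa, which are core ribosomal proteins, and Rpl3l, Rpl22l1 and Rpl39l, paralogs of Rpl3, Rpl22 and Rpl39. The probes of Rpl6, Rpl14, Rpl17, Rps20, Rps23 and Rpl39l had 0 detected readings, those of Rpsa had 1, Rpl22l1 had 2 and Rpl3l had 3. Genes with several probes show the same spread. Rps24 had probes at 13.53, 6.03 and 5.80 in untreated livers and a further one that was not kept. Rpl38 had probes at 13.86 and 5.92.

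**Figure D1:**
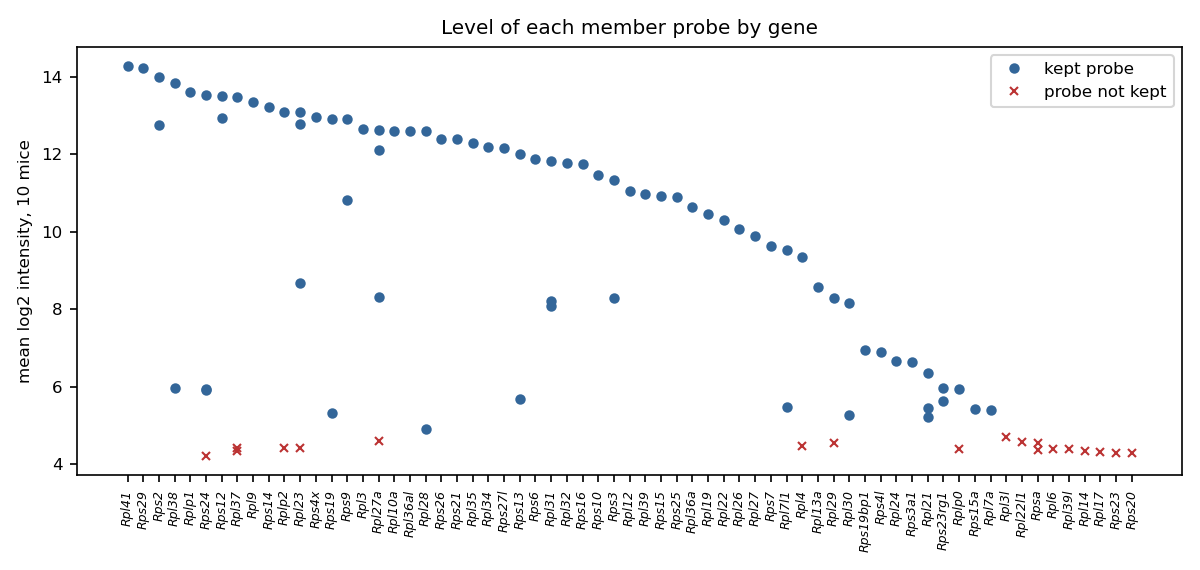
Mean log2 intensity over the 10 mice (vertical axis) of each of the 96 member probes, by gene, with the gene of the brightest probe at the left. Filled circles are the 77 kept probes and crosses the 19 probes not kept, which lie below 5 for every gene that has one.

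No member passed the test between LKB1 and untreated livers (limma, adjusted over all 16803 kept probes at 0.05). The count was 0 of 77 member probes, and 0% of all kept probes were called. At an unadjusted p under 0.05 there were 2 member probes (2.60%), against 6.66% of all kept probes. By gene there were 2 of 56 members, both lower, against 6.30% of all 9725 genes, of which 3.10% were lower and 3.21% higher. No member had groups that did not overlap (0 of 56), which 1.32% of all genes had, 0.792% lower and 0.524% higher. The smallest adjusted p among members was 0.717.

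The fold changes were small. Over the 56 members the median log2 fold change, LKB1 minus untreated, was -0.034, with quartiles at -0.081 and 0.021, beside a median of -0.0025 over all 9725 genes with quartiles at -0.082 and 0.080. The value was above 0 in 18 of 56 members (32.1%) and below 0 in 38, against 49.2% and 50.8% of all genes. Among Rpl genes 7 of 32 had a value above 0, with a median of -0.061, and among Rps genes 11 of 24, with a median of -0.013. The Rps genes include Rps19bp1 and Rps23rg1, which are not ribosomal proteins themselves, and the transcribed pseudogene Rps4l. Their values were 0.10, 0.02 and 0.31, all above 0. The difference between Rpl and Rps genes was not tested. Without untreated mouse 3 the median of all members was -0.015, and without untreated mouse 1 it was -0.054. With array medians made equal in place of quantile normalization, 8 of 56 members had a value above 0 and the median was -0.094. On that scale all genes had a median of -0.0087, and the 1948 genes at least as bright as the lower quartile of members had one of -0.079, with 21.5% above 0. Under quantile normalization the same 1948 genes had a median of -0.0064 and 47.2% above 0.

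**Figure D2:**
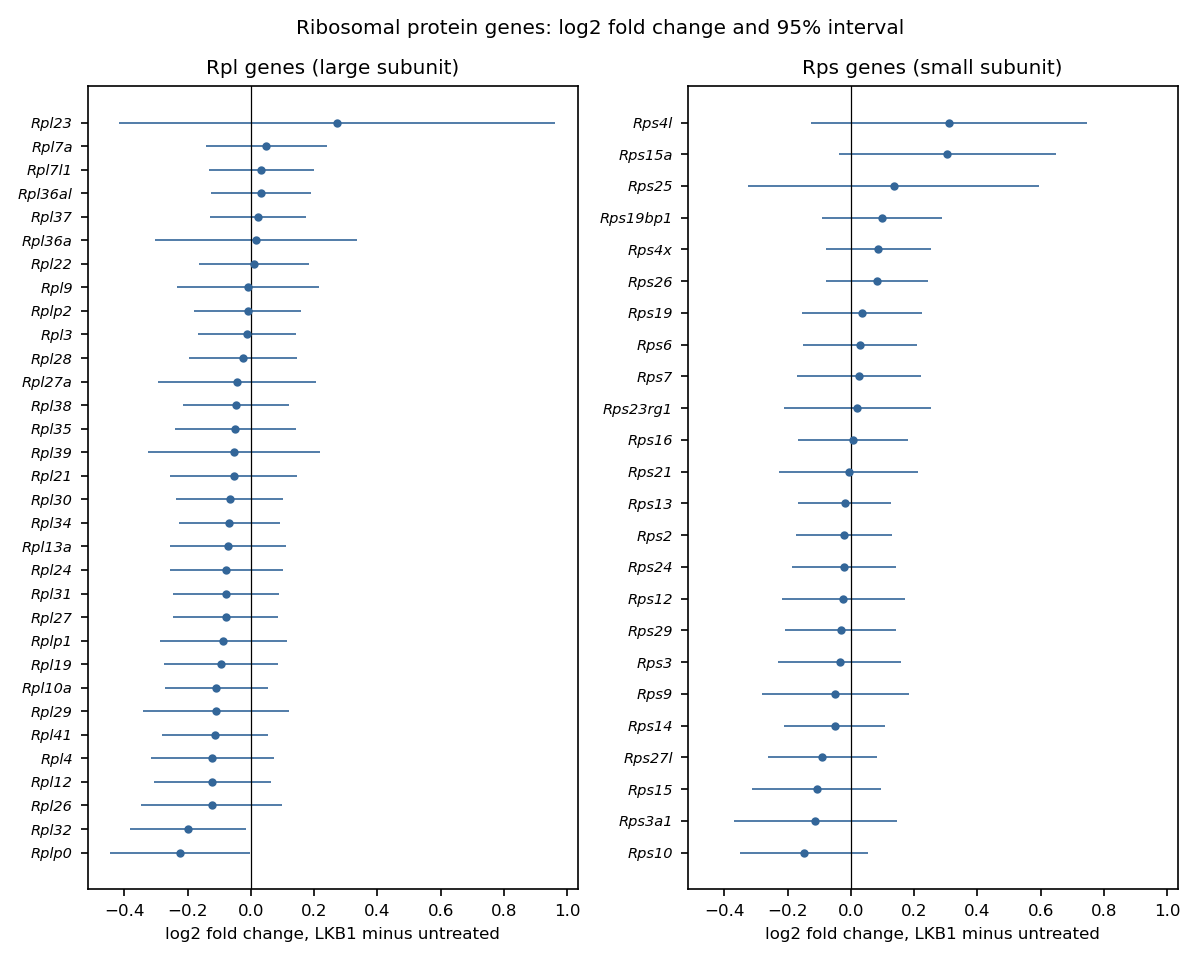
Log2 fold change, LKB1 minus untreated (horizontal axis), of the 56 kept members at their brightest probe, in order of value, Rpl genes at the left and Rps genes at the right. Points are limma estimates from 4 untreated and 6 LKB1 mice and bars are 95% confidence intervals. Values run from -0.22 for Rplp0 to 0.31 for Rps4l.

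The intervals of these estimates were narrow for most members. For 34 of 56 members the 95% confidence interval of the fold change lay within 1.2-fold in either direction, and for 52 within 1.5-fold. The same held for 28.3% and 92.2% of all genes. The 4 members whose interval reached beyond 1.5-fold were Rps15a, Rps4l, Rpl23 and Rps25. Members varied little between mice of a group, with a median within-group SD of 0.11 on the log2 scale, beside 0.17 for all genes, 0.12 for the genes at least as bright as the lower quartile of members, and 0.10 for 73 mitochondrial ribosomal protein genes. The steadiest member was Rps13, with a within-group SD of 0.050, and the least steady was Rpl23, at 0.60.

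Taken mouse by mouse, the median of the members, as the difference from each gene's mean in untreated livers, was -0.052, 0.026, 0.028 and -0.033 in untreated mice 1 to 4. In LKB1 mice 1, 2, 4, 5, 6 and 7 it was -0.073, -0.028, 0.0033, -0.052, -0.0029 and -0.041. The groups overlapped, and LKB1 mouse 1 was the lowest of all. For Rpl genes alone the untreated mice ran from -0.033 to 0.027 and the LKB1 mice from -0.10 to -0.0050, and for Rps genes the ranges were -0.081 to 0.038 and -0.091 to 0.036. Before any normalization, the 96 member probes took between 2.47% and 2.56% of the summed intensity of an array in untreated livers and between 2.35% and 2.52% in LKB1 livers, with means of 2.51% ± 0.048 (SD, n = 4) and 2.41% ± 0.065 (SD, n = 6). The summed intensity itself had a mean of 13829699 ± 2557282 (SD, n = 4) in untreated and 11656096 ± 1899891 (SD, n = 6) in LKB1 livers. It ran from 11796348 to 17571842 in untreated and from 10113477 to 14468952 in LKB1 livers. Whether the share follows the brightness of an array was not tested. In RNA from whole tissue, fewer cells of a type and less RNA per cell cannot be told apart.

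**Figure D3:**
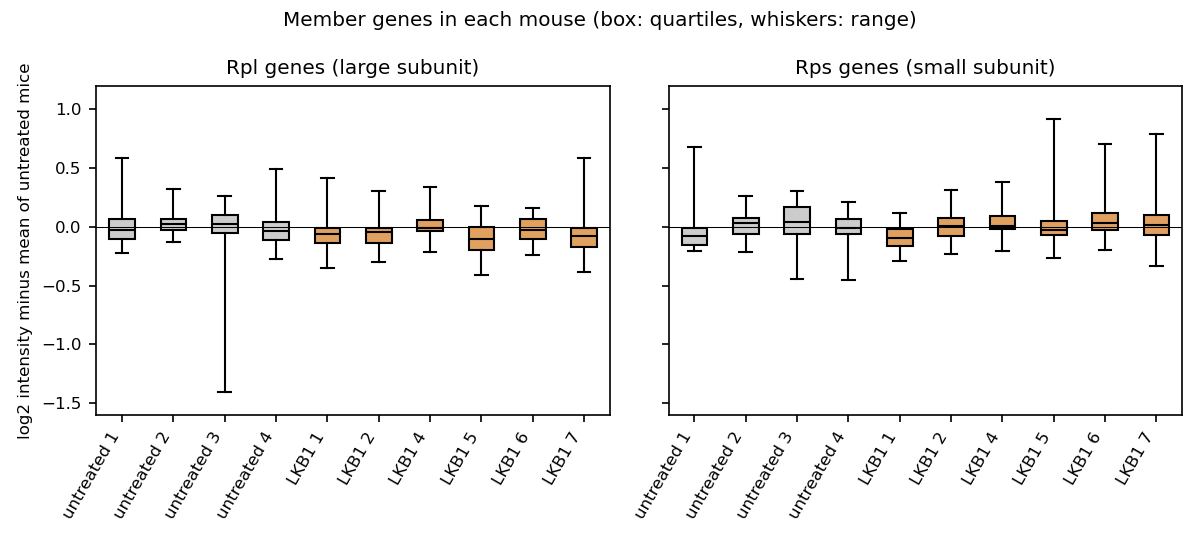
Log2 intensity minus the mean of the untreated mice (vertical axis) for the 32 Rpl genes (left) and 24 Rps genes (right) in each of the 10 mice. Boxes give the quartiles with the median as a line, whiskers the full range, grey for untreated and orange for LKB1 mice; the long lower whisker of untreated mouse 3 is Rpl23.

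Among proteins of the large subunit, the members of smallest p were Rpl32 and Rplp0. Rpl32, a core protein often used as a reference transcript, read 11.91, 11.91, 11.95 and 11.79 in untreated mice 1 to 4 and had a lowest value of 11.51, a median of 11.67 and a highest value of 11.88 in LKB1 mice. All 6 LKB1 mice lay below the untreated mean, but LKB1 mouse 2 lay above untreated mouse 4. Its log2 fold change was -0.20 ± 0.08 (SE), a 1.15-fold lower level, with a limma adjusted p of 0.717 (unadjusted p = 0.035). It had the same sign in both array sets, at -0.14 in set A and -0.25 in set B.

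Rplp0 encodes the protein that anchors the stalk of the large subunit, where elongation factors bind. It read 5.92, 6.24, 6.22 and 5.95 in untreated mice, and in LKB1 mice it ranged from 5.70 to 6.06 with a median of 5.84. All 6 LKB1 mice lay below the untreated mean of 6.08, and 2 of them lay above untreated mouse 1. The log2 fold change was -0.22 ± 0.10 (SE), with a limma adjusted p of 0.745 and an interval from -0.45 to -0.0021, from a probe near background. The other stalk proteins, Rplp1 and Rplp2, which bind to Rplp0 as pairs, were bright and gave -0.09 ± 0.09 and -0.01 ± 0.08 (SE). Rplp1 was at 0.0015 without untreated mouse 3, in which it read 13.92 against 13.53 to 13.62 in the other untreated mice.

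Rpl41, Rpl10a, Rpl12, Rpl4 and Rpl26 followed with log2 fold changes from -0.12 to -0.11, none of which passed (limma adjusted p from 0.843 to 0.869). Rpl41 read 14.23, 14.29, 14.39 and 14.41 in untreated mice and 14.09 to 14.31 in LKB1 mice, all 6 of them below the untreated mean, and the groups overlapped. Rpl10a forms the mobile stalk at the exit side of the ribosome, and Rpl12 sits at the base of the stalk that Rplp0 anchors. The value of Rpl12 was -0.25 in array set A against 0.0063 in set B, and without untreated mouse 2 its value was -0.054. Rpl4, which lines the tunnel of the growing chain, read 9.35, 9.54, 9.37 and 9.44 in untreated mice and between 9.08 and 9.48 in LKB1 mice, so the groups overlapped. Rpl26, which in human cells binds the mRNA of p53, read 10.21, 10.22, 10.11 and 10.03 in untreated mice and 9.84 to 10.33 in LKB1 mice, the highest of them LKB1 mouse 4.

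Large-subunit proteins known for roles beyond general translation gave values on both sides of 0. Rpl13a, which leaves the ribosome after interferon-gamma in human myeloid cells, was at -0.07 ± 0.08 (SE). Rpl38, needed in mouse embryos for translation of Hox mRNAs, was at -0.05 ± 0.08 on its bright probe and 0.11 on its dim one. Rpl22, which T-cell development requires, was at 0.01 ± 0.08. Each of these intervals included 0 and their limma adjusted p lay between 0.905 and 0.991.

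Rpl23, which can bind the p53 ligase MDM2, had the largest spread of all members, and the spread came from 1 reading on 1 probe. At its brightest probe it read 13.50, 13.24, 11.51 and 13.41 in untreated mice and between 12.98 and 13.50 in LKB1 mice. Untreated mouse 3 stood far below the other mice of both groups. In the same mouse the second probe read 12.69, within the untreated range of 12.64 to 13.04, and the third read 8.75, within 8.62 to 8.89. The log2 fold change of Rpl23 was 0.27 ± 0.32 (SE) at the brightest probe, -0.20 without untreated mouse 3, and 0.01 and -0.14 at the other probes, none of which passed (limma adjusted p from 0.793 to 0.994).

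**Figure D4:**
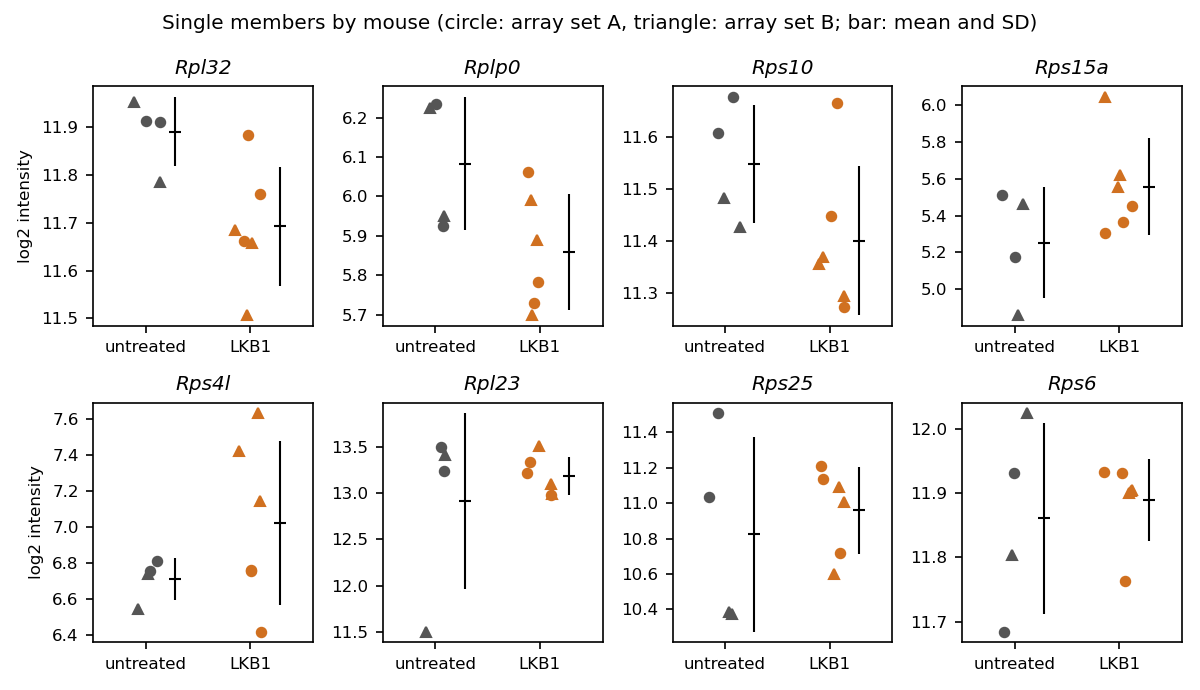
Log2 intensity (vertical axes, each on its own scale) of 8 members in each mouse, untreated in grey and LKB1 in orange, circles for array set A and triangles for array set B, with the mean and SD beside each group. Rps4l is highest in LKB1 mice 5, 6 and 7, all of set B, and Rpl23 has a single low reading in untreated mouse 3.

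Among Rps genes, Rps15a and Rps10 had the smallest p. Rps15a, a core protein of the small subunit, read 5.17, 5.51, 4.86 and 5.46 in untreated mice and from 5.30 to 6.04, with a median of 5.50, in LKB1 mice. All 6 LKB1 mice lay above the untreated mean of 5.25, but 3 of them lay below untreated mouse 2. The log2 fold change was 0.30 ± 0.16 (SE), with a limma adjusted p of 0.783, and it was 0.03 in array set A and 0.58 in set B. It was 0.17 without untreated mouse 3, and 0.17 with a larger offset of 50 added to the intensities. Rps10, one of the proteins mutated in the human red cell disease Diamond-Blackfan anaemia, read 11.68, 11.61, 11.48 and 11.43 in untreated mice and 11.27 to 11.67 in LKB1 mice. Its value was -0.15 ± 0.09 (SE), limma adjusted p 0.829, and the highest LKB1 reading came from mouse 2.

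Rps6, the small-subunit protein that S6 kinases phosphorylate when mTORC1 is active, read 11.68, 11.93, 12.02 and 11.80 in untreated mice. In LKB1 mice it read 11.93, 11.93, 11.76, 11.90, 11.90 and 11.90, so LKB1 mouse 4 lay below the others and the groups overlapped. The log2 fold change was 0.03 ± 0.08 (SE), with an interval from -0.15 to 0.21. The array measures its mRNA only, not its phosphorylation. Rps3, which also joins NF-kB complexes in human cells, was at -0.04 ± 0.09 (SE) on its brighter probe and at -0.08 on the dimmer one. Rps19, the first gene linked to Diamond-Blackfan anaemia, was at 0.04 ± 0.09, and Rps14, whose loss marks a human bone marrow disorder, at -0.05 ± 0.07.

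Rps25, which some viral mRNAs need for internal initiation, read 11.51, 11.04, 10.39 and 10.37 in untreated mice. The 2 mice of array set A were the high ones and the 2 of set B the low ones. LKB1 mice read from 10.60 to 11.21 with a median of 11.05, so all of them lay between the untreated extremes. The log2 fold change was 0.14 ± 0.21 (SE), from -0.25 in set A to 0.52 in set B. Without untreated mouse 3 it was -0.011, and without untreated mouse 4 it was -0.016.

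Paralogs and look-alike genes ran from -0.09 in Rps27l to 0.31 in Rps4l. Rps4l, a relative of Rps4x that RefSeq classes as a transcribed pseudogene, read 6.75, 6.81, 6.74 and 6.54 in untreated mice. In LKB1 mice 1, 2 and 4 it read 6.42, 6.76 and 6.76, and in LKB1 mice 5, 6 and 7 it read 7.63, 7.42 and 7.14. The last 3 mice, all of array set B, were above every other mouse, and the first 3 were not. The log2 fold change over all mice was 0.31 ± 0.20 (SE), limma adjusted p 0.834, with -0.14 in set A against 0.76 in set B. It was 0.19 without LKB1 mouse 5. The difference between the sets, tested as an interaction after these values were seen, was 0.89 ± 0.23 (SE) with an unadjusted p of 0.00275 and a limma adjusted p of 0.999. In that test 4 of 77 member probes had an unadjusted p under 0.05, against 3.81% of all kept probes, and 0 were called. Batch and any other feature shared by the mice of a set cannot be told apart.

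Rps4x, the X-linked protein of the small subunit, was at 0.09 ± 0.08 (SE), and all 6 LKB1 mice lay above the untreated mean. Rps27l, a paralog of Rps27 that p53 induces in human cells, was at -0.09 ± 0.08. Rpl36al and Rpl7l1, named for their likeness to Rpl36a and Rpl7, were both at 0.03, and Rps19bp1 was at 0.10 ± 0.09. Rps23rg1 was at 0.02 ± 0.11 on its brighter probe and -0.13 on its other. None of these passed, with limma adjusted p from 0.881 to 0.984. Ribosomal protein genes have many processed pseudogenes and near-identical copies, so a probe can also bind a relative, and values of paralogs are uncertain for that reason.

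Where a member had more than 1 kept probe, as 16 of 56 did, the log2 fold changes of its probes spanned from 0.012 in Rps9 to 0.41 in Rpl23. The members whose probes differed most, besides Rpl23 and Rpl38, were Rps24, Rps13 and Rps23rg1. Rps24 gave -0.02 on its bright probe and -0.14 and 0.21 on its dim probes, and Rps13 gave -0.02 on its bright probe and 0.17 on its dim one.

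The genes around the ribosome were counted from lists written with earlier results of these data known, and none of their members passed (limma adjusted p, 0 called in each list). Among other mRNAs of the TOP class, which encode elongation factors and related proteins, 9 of 18 measured had a value above 0 and 9 below, and the median was 0.0017 (log2). The members of smallest p were the RNA-binding protein Hnrnpa1 at -0.26 ± 0.13 (SE) and the initiation factor Eif4b at -0.23 ± 0.16. The elongation factor Eef1a1, whose mRNA is a typical TOP mRNA, read 14.99 ± 0.10 (SD, n = 4) and 14.94 ± 0.11 (SD, n = 6). Of the initiation factors 20 of 34 had a value above 0, with a median of 0.022, and those of smallest p were Eif2a at -0.17 ± 0.09 and Eif5b at -0.28 ± 0.15 (SE). Mitochondrial ribosomal proteins, which belong to the separate ribosome of that organelle, had a value above 0 in 24 of 73 (32.9%), with a median of -0.025. Groups did not overlap for 2 of them, Mrps9 at -0.19 ± 0.07 and Mrps35 at -0.15 ± 0.07 (SE), with limma adjusted p of 0.647 and 0.748, and 1.32% of all genes had groups that did not overlap, 0.792% with lower values.

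Ribosome assembly factors had a value above 0 in 25 of 38, with a median of 0.021 and 2 members at an unadjusted p under 0.05, which 6.30% of all genes had. These were Nop56, a core protein of the box C/D particles that guide methylation of ribosomal RNA, at 0.29 ± 0.10 (SE), and Nolc1, a nucleolar phosphoprotein, at 0.24 ± 0.09. Neither passed the test (limma adjusted p 0.654 and 0.685). Of the genes that link LKB1 to mTORC1 and TOP mRNAs, 8 of 17 had a value above 0 and 9 below, with a median of -0.015, and 3 had an unadjusted p under 0.05, against the same 6.30% of all genes. Eef2k, the kinase that inhibits elongation factor 2, was at -0.29 ± 0.11 and Larp1, the repressor of TOP mRNAs, at 0.24 ± 0.10 (SE), limma adjusted p 0.672 and 0.723. The third was Tsc1, part of the complex that inhibits mTORC1, at -0.46 ± 0.20 (SE), limma adjusted p 0.728.

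The livers carried hepatocyte transcripts at high levels, with 10 of 10 listed markers kept, a mean level of the markers (log2) from 11.23 to 11.49 in untreated and from 11.27 to 11.46 in LKB1 mice, and a median change of 0.023 (log2). Of 12 Kupffer cell and macrophage markers 9 were kept, and all 9 had a value above 0, with a median of 0.31, and with mean levels from 7.17 to 7.81 in untreated and 7.69 to 8.03 in LKB1 mice. Of these 9 markers, 2 had an unadjusted p under 0.05 (limma), both higher, which 6.30% of all genes had in either direction. None passed, with a lowest limma adjusted p of 0.674. The part of these markers in the values of the ribosomal protein genes was not tested. Lymphocytes are rich in ribosomal protein mRNA, and 4 of their 12 markers were kept, near background, with a mean from 4.56 to 5.59 in untreated and from 4.75 to 5.60 in LKB1 mice. Neutrophil markers were kept in 2 of 8 (median 0.070), liver endothelial markers in 6 of 8 (0.043), stellate cell markers in 6 of 8 (0.013), bile duct markers in 2 of 6 (-0.070) and red cell markers in 3 of 7 (-0.14).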

How the data were processed

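Total RNA from livers of 10 FVB mice was labelled and hybridised to bead arrays of Illumina, as the labels' protocols describe. The authors deposited a non-normalized intensity and a detection p-value for each of 45281 probes and each array, per the file headers, and a table of processed values that was read as log2, since the deposited values have equal distributions (median 4.36) and track the intensities. The submitters' processing notes name lumi. No per-sample column was left unmapped (0).

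Intensities were corrected by normexp from the detection p-values with an offset of 16, then quantile-normalized and log2-transformed (neqc, limma 3.58.1, R 4.3.3). The 16803 probes (9725 genes) that 4 or more arrays detected at p under 0.05 were used. The platform annotation of GEO gave the symbols (34885 probes with 1 symbol, 18 with several, 10378 unnamed), and all 96 member probes matched the RefSeq gene table (GRCm38.p6). The LKB1 and untreated groups were tested in limma (lmFit, eBayes), two-sided, with Benjamini-Hochberg adjustment over all kept probes. Each array was taken as 1 animal. The number of arrays limits the precision. Array sets came from clustering the arrays on probes detected on none.

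Members and lists were chosen with earlier results of these data known. Members were named by a rule: the 10 of smallest p, those with known special roles, paralogs, the brightest and dimmest, the most variable within groups, and those whose probes differ most. Of each pathway list the 2 genes of smallest p were named, and Eef1a1, Tsc1 and Rps9 were named after their values were seen.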

Additional observations from a re-analysis of the deposited data

Results flagged for a closer look

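In 4 of 66 groups examined for a single mouse far from the rest, a reading stood apart by Dixon's criterion. Chance alone meets it in about 1 of 20 groups that were not chosen by their values. Some members were named for their spread within groups, Rpl23 among them, so that rate does not apply to them. Rpl23 read 11.51 in untreated mouse 3 at its brightest probe, against 13.24 in the next lowest untreated mouse. Rps6 read 11.76 in LKB1 mouse 4, against 11.90 in the next lowest LKB1 mouse. Rps24 read 13.61 in untreated mouse 2, against 13.51 in the next highest untreated mouse. Rps23rg1 read 6.30 in LKB1 mouse 4, against 5.97 in the next highest LKB1 mouse.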

How the results depend on the processing

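No member was called between LKB1 and untreated livers under any of the 21 alternatives. These comprised other background, offset, normalization, filter, weight, block and array set settings and leaving out each mouse. The lowest adjusted p of a member was 0.506 (limma, array set as a block). A contrast of array set B with set A, with group in the model, called 133 probes (0.792%), and 1 of these was a member. The number of member probes at an unadjusted p under 0.05 was 1 without background correction, with the authors' processed values, with array weights and in the fit blocked on array set, 4 when array medians were equalised, 0 within array set A, 5 within array set B, and 0 with the replicate block (the 6 mice numbered 1, 2 and 4). It ran from 0 to 3 with 1 mouse left out. These counts are of 77 member probes. Of all 16803 kept probes, 1305 reached that p with equalised medians, 1160 within array set A and 924 within array set B. The replicate block gave 1043, leaving out 1 mouse gave 717 to 1390, and the settings with 1 member probe gave 1105 to 1455. Members above 0 numbered 8 when medians were equalised, where the median over all 56 was -0.094, and 13 to 22 with 1 mouse left out, with medians from -0.054 to -0.015. With no filter on dim probes all 65 members had a value, 25 of them above 0, and the median was -0.024. Under equalised medians, the sign turned for Rps6 (-0.053), Rps19 (-0.039), Rpl22 (-0.068), Rpl7l1 (-0.017) and Rpl36al (-0.047). Under array set A alone, the sign turned for Rps4l (-0.14), Rps3 (0.019), Rps25 (-0.25), Rpl23 (-0.19), Rpl22 (-0.068), Rps29 (0.059) and Rps2 (0.0068). Under array set B alone, the sign turned for Rpl12 (0.0063), Rplp2 (0.017), Rps6 (-0.011), Rps14 (0.0049), Rpl36al (-0.015), Rps24 (0.033), Rps13 (0.0080) and Rps23rg1 (-0.076). Under the replicate block, the sign turned for Rps15a (-0.0095), Rps4l (-0.056), Rps19 (-0.024), Rpl23 (-0.21), Rpl22 (-0.059), Rps29 (0.019), Rps2 (0.013) and Rpl7a (-0.0015). With 1 mouse left out it turned for some mice, over ranges of -0.017 to 0.044 for Rpl22, -0.20 to 0.47 for Rpl23, -0.016 to 0.061 for Rpl36al, -0.0060 to 0.074 for Rpl7l1, -0.13 to 0.0015 for Rplp1, -0.043 to 0.025 for Rplp2, -0.0014 to 0.076 for Rps19, -0.039 to 0.018 for Rps2, -0.048 to 0.070 for Rps23rg1, -0.039 to 0.011 for Rps24, -0.016 to 0.36 for Rps25, -0.080 to 0.039 for Rps29, -0.078 to 0.022 for Rps3 and -0.030 to 0.083 for Rps6. The replicate block changed no call. Mice of the 2 groups share the numbers 1, 2 and 4, and deviations from the group means correlated at 0.15, 0.24 and -0.17 between them. Mice 1 and 2 were in array set A in both groups, while untreated mouse 4 was in set B and LKB1 mouse 4 in set A. These correlations therefore cannot tell pairing from array set. The numbers were not taken to pair mice. Of 672 values of the 32 named members under alternatives, 623 kept their direction, and the cause of the other changes was not tested. Low signal over background limits what can be measured for the 9 members without a kept probe.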
